A study of Mus musculus with 24 samples.

Results

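The mRNAs of 30 genes of DNA replication initiation were followed through a SLAM-seq chase in Tut4/7-deficient and control mouse preleukemic cells. The genes are those for loading of the replicative helicase onto origins and for its activation, matched to the 3′UTR intervals of the tables by transcript accession. All 30 had at least 1 interval, among 20867 genes. SLAM-seq labels RNA with 4-thiouridine (4SU). Alkylated 4SU yields T-to-C conversions in the reads, and the conversion rate, the percentage of sequenced T positions that carry one, declines as labelled RNA is degraded. Cells were labelled with 2.9 µM 4SU for 12 h and collected 0, 60, 180 or 540 min after its removal. The 24 libraries were 3 replicates of each genotype at each chase time.

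TUT4 and TUT7 add uridines to RNA 3′ ends. Both genotypes carried floxed alleles (Tut4 fl/fl; Tut7 fl/fl) and were transformed with the retroviral oncogenes Meis1 and Hoxa9. The cDKO cells additionally carried Vav-iCre, a recombinase driven by a promoter active throughout blood cells, and the control cells did not. The source material was c-Kit-enriched mid-gestation fetal liver, so the cells model preleukemic progenitors kept in culture with Stem Cell Factor, IL-3 and IL-6. Batch is labelled by chase time. Comparisons of genotypes therefore stay inside one batch, while chase time and batch cannot be told apart. The replicates are described as biological, and p-values measure the spread between these libraries.

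Origins of replication are licensed when the origin recognition complex (Orc), with Cdc6 and Cdt1, loads the hexamer of Mcm2 to Mcm7, the core of the replicative helicase, onto DNA before S phase. The kinase Cdc7 with its activator Dbf4 then allows Cdc45 and the GINS complex to join the hexamer, and polymerase alpha with primase lays down the first primers. Geminin (Gmnn) binds Cdt1 and blocks a further round of licensing. Many of these genes are transcribed in a wave before S phase under E2F factors, which makes both the level and the turnover of their mRNAs of interest in proliferating progenitors.

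Reads within 3′UTRs ranged from 4380235 to 7041311 per library, and the 30 genes took 13225 to 21163 of them. Tut4 had 68.1, 75.2 and 86.3 reads per 1000000 3′UTR reads (CPM) in control and 17.8, 30.2 and 18.6 CPM in cDKO at 0 min, with no overlap at any chase time. For Tut7 the values were 40.3, 34.6 and 45.1 CPM and 16.7, 19.2 and 20.2 CPM, again lower throughout in cDKO. Labelling was unequal. The library-wide rate at 0 min was 1.64 ± 0.0261% for control and 0.736 ± 0.169% for cDKO (SD, n = 3, exact permutation p = 0.1, two-sided, the smallest p this design allows). Within cDKO, replicate 3 was always the least labelled, with 0.542% at 0 min. The cells also differed in lineage markers. The summed level of 8 myeloid progenitor genes was 7817 to 8793 CPM over the 12 control libraries and 2218 to 3413 CPM over the 12 cDKO libraries. At 0 min most of that sum came from Ctsg (means of 3204 CPM in control and 1539 CPM in cDKO), Prtn3 (2968 and 613 CPM) and Elane (1487 and 70.4 CPM). These 3 genes and Spi1 were called lower in cDKO by edgeR at 0 min. Kit and Mpo were lower in cDKO without overlap but were not called, and Mpo varied widely there, at 192, 11.5 and 1.75 CPM. At 0 min the means of Cd34 (16.3 and 22.9 CPM) and Cebpa (164 and 174 CPM) were not lower, and their libraries overlapped. At 60 and at 180 min edgeR called 6 of the 8 genes, 5 lower and 1 higher, with Cebpa among the 6 both times. Of the other marker lists, 5 mast cell and basophil genes summed to 15.8 to 34.5 CPM in control and 130 to 246 CPM in cDKO, with Cpa3 at 0 in all 12 control libraries. Cpa3 and Gata2 made up that rise, whereas at 0 min the cDKO means of Mcpt8 and Ms4a2 were no higher than their control means of 13.7 and 7.51 CPM, and Fcer1a was at 0 in both. The 6 neutrophil genes summed to 32.0 to 79.7 CPM in control and at most 1.96 CPM in cDKO, the 4 macrophage genes to 66.9 to 109 and 192 to 302 CPM, the 4 erythroid genes to at most 2.96 and 5.16 CPM, and the 4 lymphoid genes to at most 0.186 and 0.529 CPM. The macrophage sum rose through Adgre1 alone, which averaged 20.8 and 209 CPM at 0 min, while Csf1r (29.7 and 1.79 CPM) and Cd68 (30.4 and 17.9 CPM) were called lower by edgeR and Mrc1 was at 1.32 and 0 CPM. The part of labelling and of lineage makeup in the results below was not tested. In these bulk libraries, fewer cells of a type and less RNA per cell cannot be told apart.

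The promoters of these genes were searched for words bound by E2F factors, since shared E2F control is the textbook link between the members. RefSeq promoter windows (GRCm38.p6, 250 bases before to 50 after the start) were held for 23 of the 30 genes. Of these, 11 (47.8%) contained TTTCCCGC, TTTGGCGC, TTTCGCGC or TTTGCCGC on either strand, against 2.60% of the 27025 genes in the table. The 11 were Mcm3, Mcm5, Mcm6, Mcm7, Cdc6, Cdt1, Orc1, Orc3, Gins3, Pola1 and Topbp1. A word of G2/M promoters, TTTGAA, was found in 5 of the 23 (21.7%), against 20.2% of all genes. From these 11 genes, the word nearest the start is shown for the 4 hexamer genes, for Cdc6 as a loader and for Pola1. Each stretch is 30 bases on the strand of the gene, 5′ to 3′, and capitals mark the E2F words, including overlapping ones and those that read on the other strand. A match is a description of these letters and not a measured binding site.
Mcm3, chr1:20820275-20820304, minus strand: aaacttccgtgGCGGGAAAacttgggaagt
Mcm5, chr8:75109349-75109378, plus strand: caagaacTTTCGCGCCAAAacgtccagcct
Mcm6, chr1:128359734-128359763, minus strand: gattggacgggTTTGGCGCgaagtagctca
Mcm7, chr5:138171849-138171878, minus strand: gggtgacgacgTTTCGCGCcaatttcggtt
Cdc6, chr11:98908002-98908031, plus strand: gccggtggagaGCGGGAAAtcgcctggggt
Pola1, chrX:93632275-93632304, minus strand: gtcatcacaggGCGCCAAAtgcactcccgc

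The mRNAs fell along a wide range of half-lives, and the hexamer mRNAs were longer-lived than several single regulators of licensing and firing, while the ranges of the classes overlapped. In control cells the 6 hexamer mRNAs had fitted half-lives of 242 to 335 min, while those for the loaders Cdc6 and Cdt1 were at 63.6 and 90.0 min. The kinase Cdc7 (79.9 min), the largest Orc subunit Orc1 (88.3 min), the GINS subunit Gins3 (81.7 min) and the firing factor Mcm10 (115 min) were also short. Among these short-lived mRNAs, Cdc6 and Mcm10 passed the SD filter described below and the others did not. A half-life here is that of a single exponential fitted to the 12 libraries of a genotype, after each conversion rate was divided by the mean rate at 0 min. Over the 8781 genes with enough coverage the median was 201 min in control, so the hexamer lay above it and these regulators below it. Cdc6 stood at percentile 2.39 of all genes and Mcm5 at percentile 82.6.

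Subunits of Orc and of GINS did not share the same half-life, and the fitted values also differed within polymerase alpha and primase. Orc ranged from 88.3 min for Orc1 through 118 min for Orc5, 133 min for Orc4, 155 min for Orc6 and 239 min for Orc2 to 362 min for Orc3. GINS ranged from 81.7 min for Gins3 through 191 min for Gins1 and 261 min for Gins2 to 322 min for Gins4. Within polymerase alpha and primase, the catalytic subunit Pola1 had 176 min, its partner Pola2 255 min, the primase catalytic subunit Prim1 207 min and the large primase subunit Prim2 467 min. The SD filter described below kept 2 Orc genes (Orc5 and Orc3), 2 GINS genes (Gins1 and Gins4) and 1 of this class (Pola1). The extremes Orc1, Gins3 and Prim2 did not pass it and are less certain. Among hexamer mRNAs the order was Mcm6 242, Mcm3 243, Mcm4 298, Mcm7 302, Mcm2 317 and Mcm5 335 min.

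The replicates set how finely this order can be read. For Cdc6 the 3 control half-lives, each from the 4 libraries with the same number, were 59.1, 52.2 and 87.1 min, and for Mcm5 they were 405, 349 and 272 min. Those ranges are far apart. Mcm6 (220, 253 and 254 min) and Mcm3 (198, 283 and 258 min) overlapped, as did Mcm7 (282, 320 and 306 min) and Mcm2 (314, 339 and 298 min), so neighbours within the hexamer are not ordered by these data. Orc3 (332, 287 and 564 min) lay above Orc5 (106, 108 and 146 min) in every replicate. The half-lives of Gins3 (78.4, 99.0 and 64.7 min) and Gins4 (287, 269 and 443 min) did not overlap either. Within polymerase alpha and primase, the Pola1 replicates (176, 281 and 108 min) spanned the fitted values of Prim1 and Pola2. Pola1, Prim1 and Pola2 are therefore not ordered by these data.

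**Figure D1:**
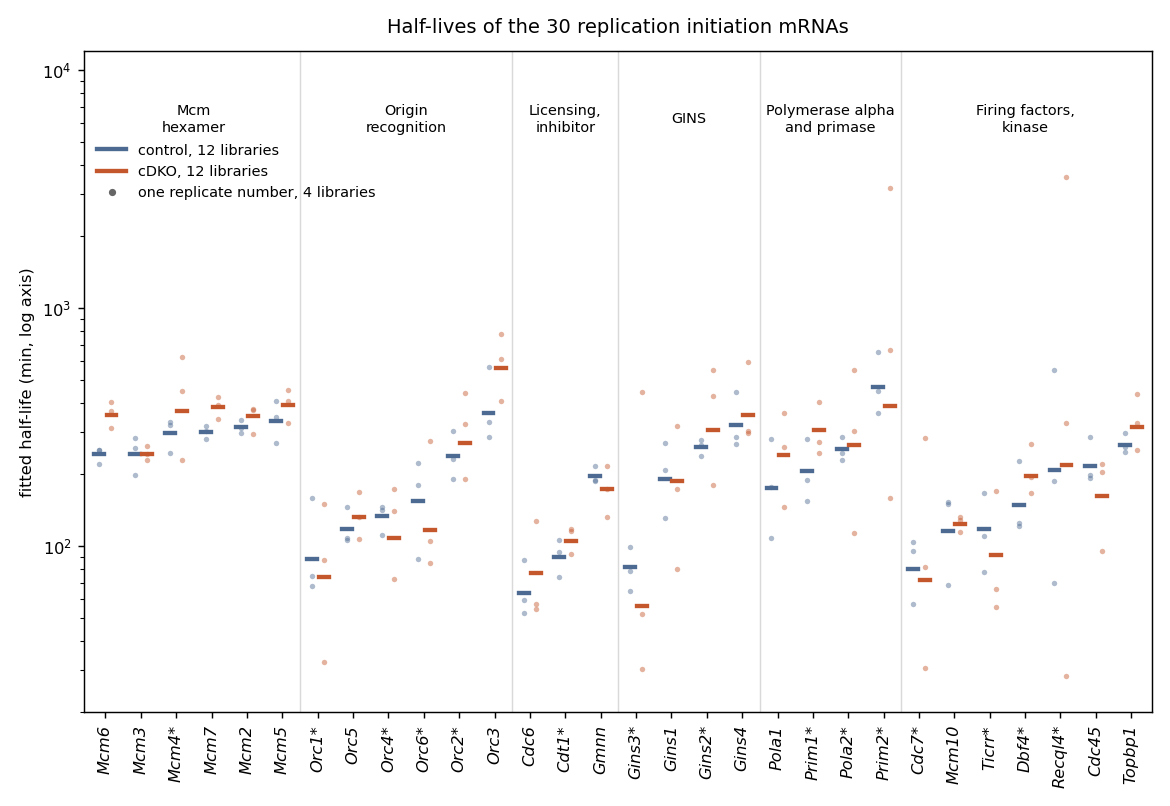
Half-life in minutes (log axis) of the 30 mRNAs by class, in control (blue) and cDKO (orange). Dashes are fits to the 12 libraries of a genotype and points are fits to the 4 libraries of a replicate number. Asterisks mark the 15 genes whose 0 min rates varied too much for the SD filter. The hexamer dashes of control lie between 242 and 335 min, above those of Cdc6 and Cdt1 at 63.6 and 90.0 min.

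The decay of the hexamer mRNAs departed from a single exponential. At 180 min control cells still held a median of 82.5% of the 0 min rate over the 6 hexamer genes, where the fitted curves give 66.0%. By 540 min the measured median was 14.1% and the fitted one 28.8%. Mcm3 went from 74.9% at 180 min to 6.07% at 540 min, and Mcm6 from 74.1 to 4.90%. The same shape was seen over all genes, whose median at 540 min was 7.70% against 15.5% from the curves. With a straight line on the log scale in place of the exponential, hexamer half-lives in control were 118 to 199 min, and those of the 3 of 5 short-lived regulators that could be fitted (Cdc6, Cdt1 and Cdc7 among Cdc6, Cdt1, Cdc7, Orc1 and Mcm10) were 103 to 107 min. The gap between the groups therefore narrowed with the model, and in cDKO the log-linear ranges overlapped, at 139 to 273 min for the hexamer and 136 to 164 min for the 4 regulators that could be fitted. The log-linear fit uses the 540 min rates. Control means of Cdc6, Cdt1 and Cdc7 were then 0.0613, 0.0605 and 0.0576%, below the control floor of 0.0754% described below. Labelled RNA and background cannot be told apart at such rates.

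In cDKO the hexamer mRNAs ranged from 243 to 392 min and the 5 short-lived regulators from 72.3 to 124 min. Those 5 were singled out for short half-lives in these data, so their lower range is not a separate test. The firing factors and kinase as a class reached into the hexamer range. Topbp1 was the highest of that class, at 267 min in control and 316 min in cDKO. All 6 hexamer estimates were at or above those of control. The ratio of half-lives was 1.46 for Mcm6, 1.27 for Mcm7, 1.24 for Mcm4, 1.17 for Mcm5 and 1.11 for Mcm2, and 1.00 for Mcm3. The replicate half-lives of Mcm6 were 220, 253 and 254 min for control cells, against 313, 368 and 403 min for cDKO. Those of Mcm7 were 282, 320 and 306 min for control cells, against 342, 422 and 393 min for cDKO. In neither gene did the genotypes overlap. These were the 2 members of 30 with longer and non-overlapping replicate half-lives, against a background of 12.4% of all 8781 genes and 17.1% of the 3712 that passed the SD filter described below. No member was shorter without overlap, beside 2.73% of all genes.

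A shift to longer half-lives ran through the whole table. Of the 30 members, 20 had a longer half-life in cDKO (66.7%), beside 65.4% of all genes, and the median log2 ratio was 0.15 beside 0.19. The SD filter, taken from the study's methods, leaves out genes whose rates varied widely among replicates at 0 min. Among the 15 members that passed it, 12 were longer and the median log2 ratio was 0.17, beside 68.7% and 0.19 over 3712 genes. With the log-linear model the members' median was higher, at 0.47 beside 0.33 over all genes with the SD filter (13 of 13 fitted members longer) and 0.47 beside 0.34 without it (21 of 23 longer). By class the median log2 ratio was 0.27 for the hexamer, -0.05 for Orc, 0.22 for Cdc6, Cdt1 and Gmnn, 0.06 for GINS, 0.26 for polymerase alpha and primase and 0.08 for the firing factors and kinase. Orc3 had a ratio of 1.55 and Prim1 one of 1.49, with overlapping replicates in both. The lower estimates included Gins3 with 81.7 and 56.1 min in control and cDKO, Cdc45, a helicase cofactor, with 217 and 162 min, and Orc6 with 155 and 117 min, and replicates overlapped in all of these. For thinly covered genes the cDKO replicates scattered widely: Recql4, a helicase of origin firing, gave 28.5, 327 and 3552 min.

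The shift was smaller after a background was subtracted. Conversions of 418 short-lived genes gave a floor of 0.0619% in cDKO and 0.0754% in control at 540 min. With the cDKO floor subtracted from both genotypes, the hexamer half-lives were 229 to 320 min in control and 213 to 355 min in cDKO. Mcm3 had 230 and 213 min in that order. The 5 short-lived regulators were at 60.1 to 108 min in control and 62.8 to 108 min in cDKO, below the hexamer. As they were chosen for short half-lives in these data, that gap is not a separate test. The median log2 ratio over the members was 0.06 beside 0.08 over all genes.

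The loss of conversions was then compared between genotypes gene by gene, as the genotype by hour term of a model of conversion counts. Mcm6 was the 1 member of 30 whose term passed, with 0.25 ± 0.05 log2 units per hour higher in cDKO (SE, edgeR quasi-likelihood adjusted p = 0.0167), meaning slower loss. Over all 9207 genes tested, 12 passed, all higher in cDKO (0.13%), and by DESeq2 207 with Mcm6 again the 1 member. The term was positive in 29 of the 30 members with a median of 0.09, beside 80.7% and 0.07 over all genes. The exception was Gins3 at -0.20 (edgeR adjusted p = 0.494). Unadjusted p-values were under 0.05 for 9 members, all positive.

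Mcm6 encodes a hexamer subunit, and its interval lies on chr1:128331575-128333480 (mm10, minus strand, 3′UTR). At 0 min its conversion rate was 1.63, 1.68 and 1.65% in control and 0.942, 0.870 and 0.521% in cDKO. At 540 min it was 0.0658, 0.0952 and 0.0824% in control and 0.211, 0.207 and 0.106% in cDKO. So the order of the genotypes turned over the chase, from lower in all 3 cDKO libraries to higher in all 3, without overlap at either time. The control rates at 540 min lay around the floor of the short-lived genes. At 60 and 180 min Mcm6 kept the order of 0 min, with 1.48, 1.48 and 1.58% then 1.09, 1.33 and 1.27% in control, and 0.764, 0.893 and 0.597% then 0.760, 0.735 and 0.491% in cDKO.

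Few genes showed such a turn. At 0 min 27 of the 30 members had lower rates in cDKO without overlap, beside 83.4% of all genes. At 540 min 2 members were higher without overlap, Mcm6 and Mcm10, beside 2.13% of all genes, and 5 were still lower, Mcm2, Mcm3, Mcm4, Mcm7 and Cdc45, beside 20.6%. Mcm10, which acts in helicase activation, had 0, 0.0504 and 0.0289% in control and 0.0783, 0.119 and 0.0605% in cDKO, and its interaction term was 0.25 ± 0.08 (SE, edgeR adjusted p = 0.14). The control rates of Mcm10 lay below the control floor of 0.0754%, and those of cDKO lay around the cDKO floor of 0.0619%. Mcm3 contrasted with Mcm6. Its 540 min rates were 0.105, 0.124 and 0.0953% in control and 0.0458, 0.0617 and 0.0563% in cDKO, and its term was 0.04 ± 0.05 (SE, edgeR adjusted p = 0.768). The cDKO rates of Mcm3 were thus below the cDKO floor, so they do not show how much labelled Mcm3 RNA remained.

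The call for Mcm6 rested on the last time point. Without the 540 min libraries the term was 0.06 (edgeR adjusted p = 1.00), and with the floor subtracted it was 0.40 (adjusted p = 0.0806). It was also lost without cDKO replicate 2 (adjusted p = 0.0669), control replicate 1 (0.0941) or control replicate 3 (0.110) by the same edgeR test. It remained without cDKO replicate 3, the least labelled, at 0.25 (edgeR adjusted p = 0.0186) and with the library-wide conversion rate in the offset at 0.20 (edgeR adjusted p = 0.00684).

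**Figure D2:**
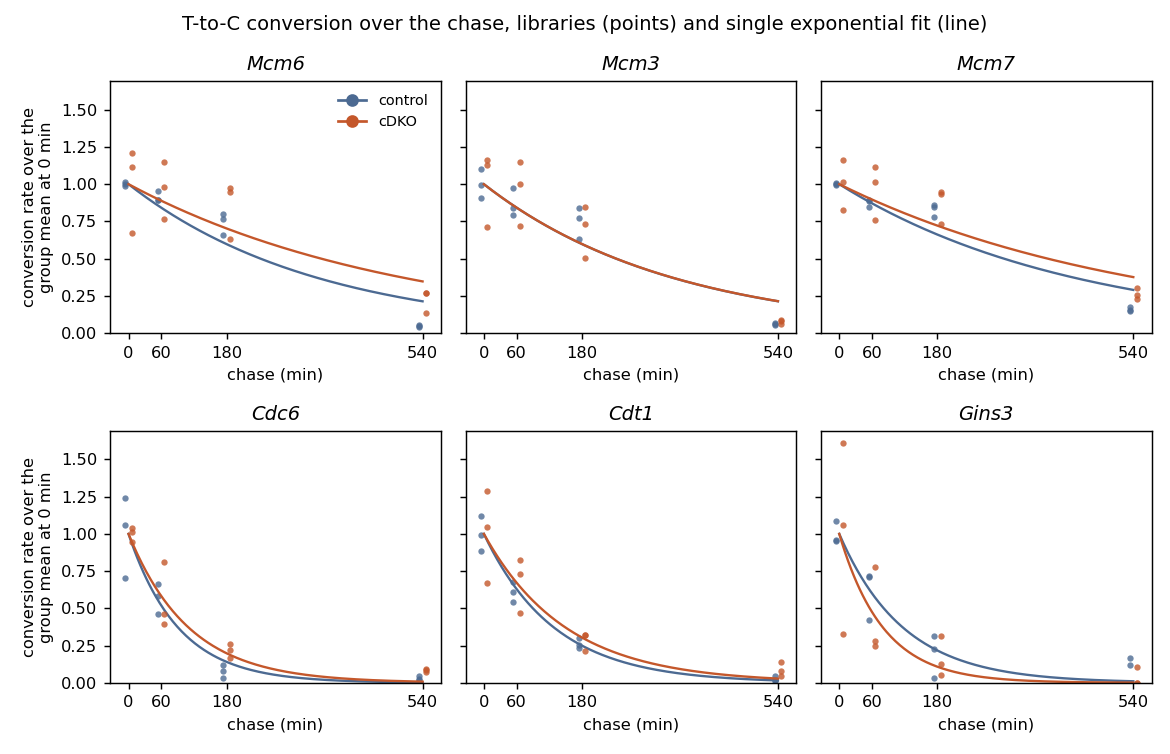
Conversion rate of 6 mRNAs over the chase in minutes, each library divided by its genotype's mean at 0 min (points) with the fitted exponential (lines), control in blue and cDKO in orange. At 540 min the Mcm6 libraries of control average 4.90% of the 0 min rate and those of cDKO 22.5%, and the control points of Mcm6, Mcm3 and Mcm7 lie above the curves at 180 min and below them at 540 min.

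Relative to its library, labelling of the members at 0 min did not separate the genotypes. None of the 30 passed (edgeR quasi-likelihood test), beside 0.304% of 9207 genes, and 3 had an unadjusted p under 0.05, all higher: Cdc45 at 0.37, Gmnn at 0.48 and Prim2 at 0.64 on the log2 scale. The members' median was 0.05 beside 0.00 over all genes. Prim2 illustrates the spread in cDKO, with 2.08, 1.34 and 0.554% of T positions converted beside 1.96, 1.75 and 1.87% in control.

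Abundance differed little between genotypes at 0 min. None of the 30 mRNAs passed (edgeR quasi-likelihood test, Benjamini-Hochberg adjustment over 10186 genes), beside 13.4% of all genes, and DESeq2 also called none. Unadjusted p-values were under 0.05 for 4 members, Mcm3, Mcm6 and Cdc6 higher in cDKO and Prim2 lower. The summed level of the 6 hexamer mRNAs was 1797, 1760 and 1824 CPM in control and 1950, 1991 and 1780 CPM in cDKO, so the genotypes overlapped through cDKO replicate 3. That replicate had the lowest summed hexamer level of its group at each time.

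Mcm3 was the member whose level differed at most times. Its interval lies on chr1:20803014-20803455 (mm10, minus strand, 3′UTR). At 0 min it was at 259, 248 and 256 CPM in control and at 278, 317 and 305 CPM in cDKO. At 60 min the values were 252, 244 and 252 CPM in control and 307, 339 and 293 CPM in cDKO. At each of the 4 times all 3 cDKO libraries exceeded all 3 control libraries. Its log2 fold change was 0.31 ± 0.07 at 60 min (SE, edgeR adjusted p = 0.0136), where it was the 1 member called, beside 20.2% of all genes. At 540 min it was at 237, 225 and 244 CPM in control and at 287, 290 and 283 CPM in cDKO, a change of 0.28 ± 0.07 (SE, edgeR adjusted p = 0.0186), again the 1 member called beside 19.2% of all genes. At 0 min the change was 0.26 ± 0.09 (SE, edgeR adjusted p = 0.108). The calls were near the threshold: at 60 min leaving out any of the control replicates gave an adjusted p of 0.0511 to 0.0660, and at 540 min leaving out cDKO replicate 1, control replicate 1 or control replicate 2 gave 0.0507 to 0.0576 (edgeR).

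At 180 min 4 members passed, all higher in cDKO: Mcm3, Mcm6, Pola1 and the Orc subunit Orc2. The background was 18.9% of all genes in either direction and 9.1% higher, and DESeq2 called 3 of the members. Mcm6 was at 258, 273 and 272 CPM in control and at 369, 392 and 358 CPM in cDKO, a log2 fold change of 0.46 ± 0.07 (SE, edgeR adjusted p = 0.00147). Mcm3 was at 233, 220 and 230 CPM in control and at 284, 316 and 296 CPM in cDKO, a change of 0.37 ± 0.07 (SE, edgeR adjusted p = 0.00539). Neither gene overlapped between genotypes, and both calls held without any single replicate.

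Pola1, the catalytic subunit of polymerase alpha, had the largest change among the 4, and its interval lies on chrX:93304766-93305670 (mm10, minus strand, 3′UTR). It was at 21.7, 23.4 and 19.9 CPM in control and at 34.8, 45.2 and 32.0 CPM in cDKO at 180 min, a log2 fold change of 0.76 ± 0.17 (SE, edgeR adjusted p = 0.0120). The control libraries of this time were the low ones, since control Pola1 was at 34.3, 32.9 and 43.2 CPM at 0 min and at 30.3, 31.7 and 33.1 CPM at 540 min. At those times its change was -0.03 and 0.07. The call was lost without control replicate 1 (edgeR adjusted p = 0.0553) or control replicate 3 (0.0604). Orc2, on chr1:58462771-58464203 (mm10, minus strand, 3′UTR), was at 54.1, 46.4 and 46.3 CPM in control and at 61.4, 67.1 and 66.0 CPM in cDKO, a change of 0.39 ± 0.12 (SE, edgeR adjusted p = 0.0436). That call was lost in DESeq2 (adjusted p = 0.0813) and without any single replicate in edgeR (0.0609 to 0.148).

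**Figure D3:**
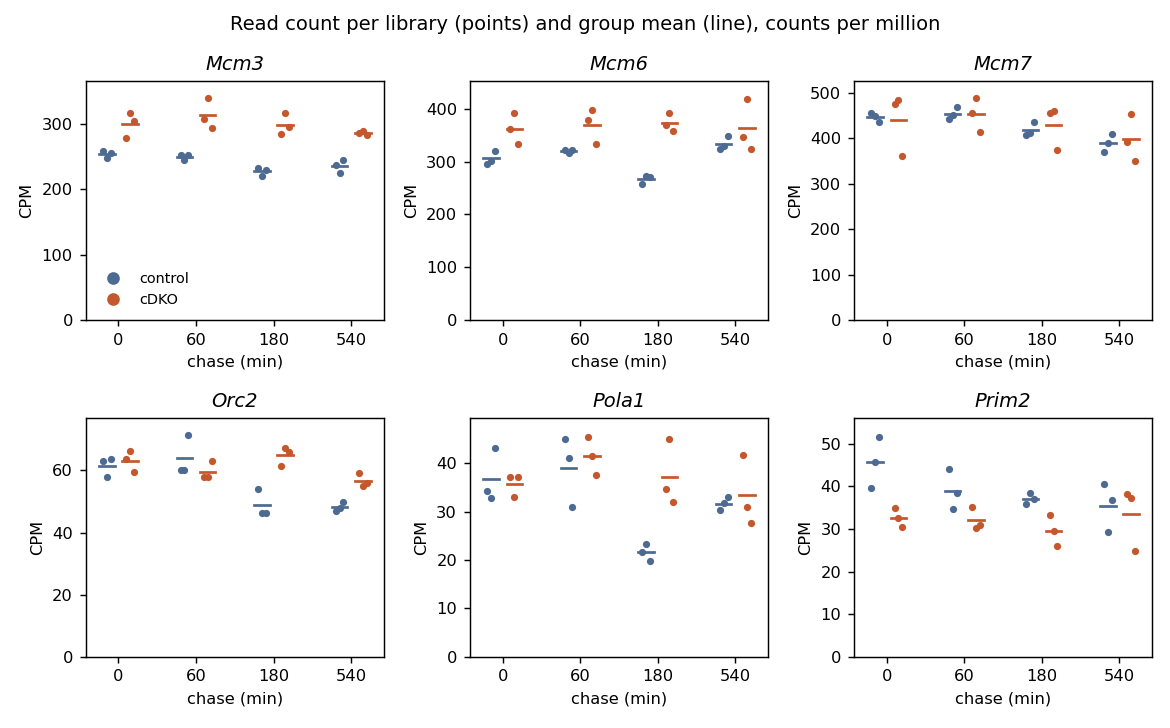
CPM of 6 mRNAs in each library (points) and group means (lines) at 4 chase times in minutes, control in blue and cDKO in orange, with axes from 0. Mcm3 libraries of cDKO lie above all control libraries at each time, Pola1 separates at 180 min where control is at 19.9 to 23.4 CPM, and Prim2 lies lower in cDKO at 0 and 180 min.

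Most members leaned towards higher levels in cDKO at 180 min without passing. The fitted change was above 0 for 27 of the 30 at that time, with a median of 0.17 beside 0.01 over all genes, and for 17, 20 and 21 of them at 0, 60 and 540 min with medians of 0.06, 0.07 and 0.11. Over all genes 50.8% were above 0 at 180 min. In CPM 13 members were higher without overlap at 180 min, beside 19.6% of all genes, and 1, Prim2, was lower beside 17.8%. At 0 min 3 members were higher without overlap beside 15.4% and 3 lower beside 18.0%, at 60 min 7 were higher beside 20.5% and none lower beside 17.9%, and at 540 min 3 were higher beside 18.2% and 1, Cdt1, lower beside 18.9%. At 180 min the 30 genes together had 2652, 2647 and 2726 CPM in control and 3112, 3293 and 2852 CPM in cDKO, with no overlap. The control sums of that time were the lowest of the 4 times, and those of cDKO replicate 3 were the lowest of their group at each time.

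By class, the hexamer was above 0 in all 6 genes at 180 min, with a median log2 fold change of 0.19, and in 4 of 6 at each other time. The GINS genes were above 0 in 4 of 4 at 180 min with a median of 0.21, and the firing factors and kinase in 7 of 7 with 0.16, led by Recql4 at 0.66 ± 0.31 (SE, edgeR adjusted p = 0.168). None of these 11 genes passed between genotypes at any time. Orc medians lay between 0.11 and 0.13 at the 4 times, with Orc3 at -0.23 at 0 min and Orc6 at 0.38 at 180 min (edgeR adjusted p = 0.244 and 0.0717). The loader Cdc6 was at 43.1, 41.7 and 38.1 CPM in control and at 60.0, 56.9 and 47.4 CPM in cDKO at 180 min, 0.40 ± 0.13 (SE, edgeR adjusted p = 0.0601). Its partner Cdt1 leaned lower at 540 min, with 130, 138 and 128 CPM in control and 122, 119 and 82.8 CPM in cDKO (-0.30, edgeR adjusted p = 0.174).

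Prim2 was the member with the lowest fitted change at 0 and 180 min. At 0 min it was at 39.7, 45.7 and 51.6 CPM in control and at 34.9, 32.5 and 30.5 CPM in cDKO, so that every cDKO library was lower. Its log2 fold change was -0.47 ± 0.15 (SE, edgeR adjusted p = 0.0654) at 0 min and -0.30, -0.34 and -0.09 at 60, 180 and 540 min, none of which passed. Its partner in primase, Prim1, was at -0.02, -0.03, 0.03 and -0.11.

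**Figure D4:**
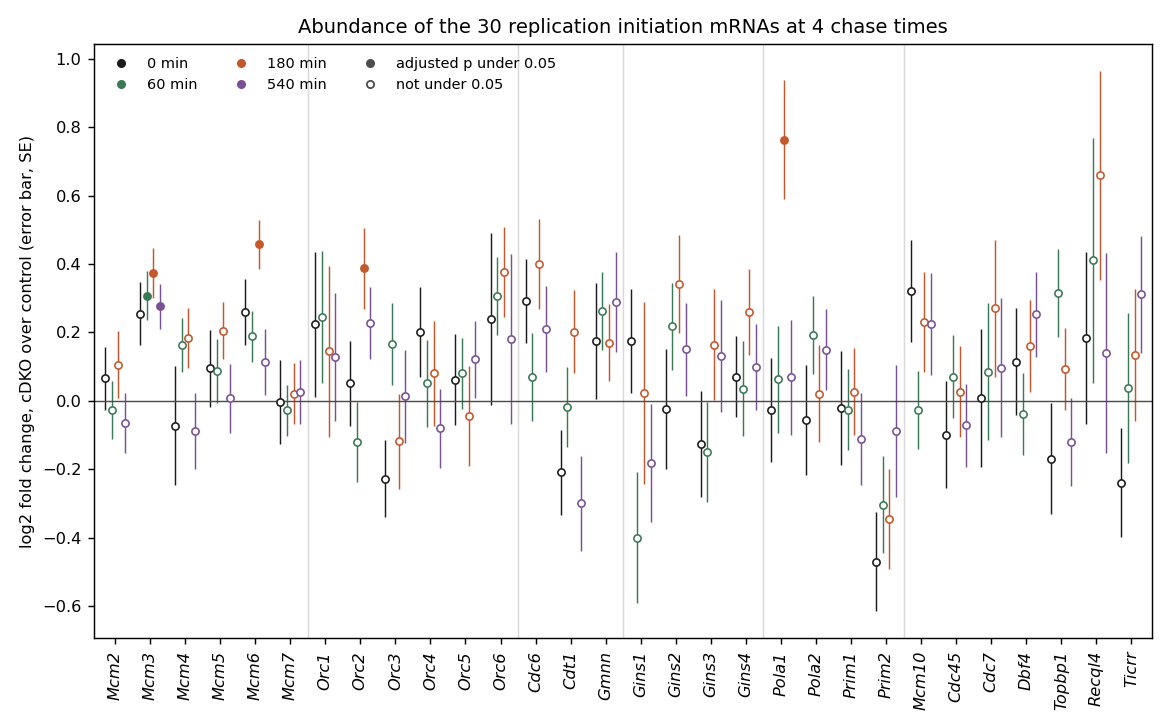
Log2 fold change in abundance, cDKO over control, of the 30 mRNAs at 4 chase times, with the SE as error bars. Filled points passed the edgeR test: Mcm3 at 60, 180 and 540 min and Mcm6, Orc2 and Pola1 at 180 min. Most points of 180 min lie above 0 and those of Prim2 lie below it.

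Across the chase itself, 5 members were called lower at 540 than at 0 min in control, beside 16.2% of all genes called in either direction and 8.18% called lower, and no member was called higher. Those called lower were Gins3 at -0.63, Ticrr, a factor that brings Topbp1 to the helicase, at -0.58, Gmnn at -0.48, Orc2 at -0.39 and Mcm7 at -0.24 (log2 fold change, edgeR adjusted p = 0.00790 to 0.0266). Gins3 went from 37.4, 37.8 and 34.0 CPM at 0 min to 21.4, 24.7 and 26.1 CPM at 540 min, with no overlap. All 4 GINS genes were lower at 540 min in both genotypes in their fitted values, with medians of -0.32 in control and -0.27 in cDKO. None of the 5 calls was left without replicate 1 (edgeR adjusted p = 0.0645 to 0.146), Gmnn, Orc2 and Gins3 were left without replicate 2, and Mcm7 and Gins3 without replicate 3.

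In cDKO no member passed between 0 and 540 min, beside 0.117% of 10235 genes, and 2 had an unadjusted p under 0.05 (edgeR), Gins1 at -0.52 and Pola2 at 0.45. DESeq2 called 122 genes and likewise no member. With the replicate number as a block, which pairs the cDKO cultures, 128 of all genes were called in place of 12 and still none of the members. A test of the difference between genotypes in this change called no gene by edgeR (0.0% of 10651), and by DESeq2 6 genes but no member. One member, Ticrr, had an unadjusted p under 0.05, at 0.57 (edgeR adjusted p = 0.949). The calls in control are thus not shown to be absent from cDKO.

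Other genes of replication and the cell cycle give the setting for these values, and their counts can be read against the shares of all genes called, 13.4% at 0 min, 20.2% at 60 min, 18.9% at 180 min and 19.2% at 540 min. A list of 31 genes was drawn up for replication elongation but also holds genes of origin firing, recombination and chromatin assembly. Of these 31 genes 30 were tested and none passed at 0 min by edgeR. There were 3 at an unadjusted p under 0.05 and 1 called by DESeq2, with a median log2 fold change of 0.08. At 60, 180 and 540 min 1, 1 and 4 genes of that list passed, all higher in cDKO, and the gene at 60 min acts in origin firing. None of 7 nucleotide supply genes passed at 0 min by edgeR or DESeq2, and 1 had an unadjusted p under 0.05. At 60 min 1 of the 7 passed, lower, and at 180 and 540 min 2 passed, higher. Of 23 G1/S control genes 6 passed at 0 min, 4 higher and 2 lower, then 11 at 60 min (8 higher), 7 at 180 min (5 higher) and 2 at 540 min, both higher. At 0 min the cell cycle inhibitor Cdkn1a was lower at 610, 660 and 589 CPM in control and 234, 238 and 283 CPM in cDKO (log2 fold change -1.29, edgeR adjusted p = 0.000122). The E2F family members E2f7 and E2f2 were higher by 1.07 and 0.63, the D cyclins Ccnd2 and Ccnd3 by 0.48 and 0.41, and the cyclin Ccna2 was lower at -0.43. Of the 6, Cdkn1a alone kept its call in every alternative (edgeR or DESeq2 adjusted p at most 0.00247), and the largest adjusted p of the others ranged from 0.0694 to 0.179. By 540 min the change of Cdkn1a was -0.12 (edgeR adjusted p = 0.639). E2f7 acts as a repressor of E2F targets and E2f2 as an activator. Of 15 G2/M genes 1 passed at 0 min, the kinesin Cenpe at -0.41 (edgeR adjusted p = 0.0435, up to 0.156 in the alternatives), then 2 at 60 min, both lower, 3 at 180 min (1 higher) and 5 at 540 min (4 higher). The median half-life in control was 229 min for the elongation list, 241 min for nucleotide supply, 131 min for G1/S control and 189 min for G2/M. Over the 30 initiation genes it was 208 min.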

How the data were processed

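SLAM-seq 3′-end libraries were tabulated by the authors over mouse 3′UTR intervals (mm10), per the file headers with slamdunk 0.4.3. Alignment settings are not given in the sources used here. The deposited tables hold whole-number read counts, conversions and covered T positions, with a conversion rate as a fraction and CPM derived from them by the authors. The read counts, conversions and coverage were used, and rates and CPM of 3′UTR reads were recomputed. No columns of the authors' comparisons were present in these tables, and no molecular identifiers are mentioned in the sources used here.

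Accessions were named through a RefSeq table of GRCm38.p6, which matched 99.18% of 39419 lines. Of overlapping intervals of a gene the longest was kept and non-overlapping intervals were summed, giving 47 intervals for the 30 genes. Intervals of Orc3, Orc4, Gins2, Recql4 and Ticrr overlap an interval on the opposite strand, and whether counting used strand is not given in the sources used here. Multimapping reads were 6.18% for Cdc6, 4.11% for an interval of Cdc45, and 0.212 to 0.608% of the members' reads in each library.

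Abundance was tested within each chase time with edgeR 4.0.16 (TMM, filterByExpr, quasi-likelihood) and DESeq2 1.42.0 as an alternative, under R 4.3.3, with Benjamini-Hochberg adjustment over all genes and a threshold of 0.05. Conversion counts were tested with log T coverage (relative labelling: also the library-wide rate) in the offset, over genes with at least 100 covered T positions in each library and 50 conversions in all. The SE given with edgeR estimates was back-calculated, as the absolute log2 estimate divided by the square root of the quasi-likelihood F statistic. Half-lives were fitted by least squares (Python 3.11.15, numpy 2.4.6), and the exact permutation test used scipy 1.17.1. Half-lives were bounded between 1 and 10000 min, and the SD filter kept genes with an SD under 0.3 at 0 min in both genotypes. The fits were checked on simulated data. For half-lives and loss of conversions, these held single exponential decay with no background floor. That check does not cover the departure from a single exponential or the rates near the floor. The members, lists and classes were chosen with earlier results of these data known. All 30 members are named. Genes of other lists are named if called at 0 min, at most 6 a list, and single markers were named after their values were seen.

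Replicate numbers did not pair the genotypes (correlation of deviations from the group means -0.0512 to 0.0473) or the control libraries of 0 and 540 min (-0.00568 to 0.0740), but paired those of cDKO (0.263 to 0.617). No 2 replicates matched within counting noise (chi-square of 3.31 to 26.7 per degree of freedom).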

Additional observations from a re-analysis of the deposited data

Results flagged for a closer look

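The loss of conversions of Mcm6 over the chase differed between genotypes by a test of the interaction itself, at 0.25 log2 units per hour (edgeR adjusted p = 0.0167), slower in cDKO. It was the only one of the 30 genes to do so by that test. Control fell from 1.66% at 0 min to 0.0811% at 540 min and cDKO from 0.778 to 0.175% (means, n = 3). The control mean at 540 min lay near the control floor of 0.0754%. The call for Mcm6 was lost without the 540 min libraries, with the floor subtracted and in some fits that left out a replicate.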

How the results depend on the processing

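With all 24 libraries in the same fit, 3 members were called at 0 min (Mcm3 0.24, Mcm6 0.25, Prim2 -0.48) in place of 0. Leaving out each replicate in turn gave 0 to 1 members at 0 min, 0 to 3 at 60 min, 2 to 4 at 180 min, 0 to 1 at 540 min, 0 to 1 for the loss of conversions and 0 to 3 for the chase in control, and 0 for the chase in cDKO, for the difference in chase and for relative labelling at 0 min. The members called at 0 min came without cDKO replicate 2 or 3 and the 3 at 60 min without cDKO replicate 3. Over all genes they called 633 (without control replicate 2) to 2223 (without cDKO replicate 2) at 0 min in place of 1360, and 3 (without control replicate 3) to 30 (without cDKO replicate 1) for the loss of conversions in place of 12. The loss of conversions called 0 members with the floor subtracted and 0 without the 540 min libraries, and over all genes 1 (without 540 min) to 207 (DESeq2). With T coverage alone as offset, 27 members were called lower in cDKO at 0 min, all but Orc1, Prim2 and Recql4 (median over the 30 of -1.10 on the log2 scale), as the unequal labelling is then not removed. The median log2 ratio of the members' half-lives was 0.47 with the log-linear model, with or without the SD filter (all genes 0.33 and 0.34), and 0.05 to 0.17 under the other settings that keep every replicate, beside 0.13 to 0.23 when a replicate was left out (0.11 without cDKO replicate 3 and without the SD filter). The setting with the longest interval alone and those without an SD filter that change a further choice were added after seeing the data. As a replicate block the shared number gave 0, 1, 3 and 1 members for abundance at 0, 60, 180 and 540 min, losing Orc2 at 180 min (0.39, adjusted p = 0.0715), 1 for the loss of conversions with 59 genes in all, 5 for the chase in control, and 0 for relative labelling, for the chase in cDKO and for the difference in chase. Recql4 had as few as 299 covered T positions in a library, so its rates and half-lives are the least precise.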
